A study of Rattus norvegicus with 24 samples.

Results

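Fos, Jun, Junb and Egr1 are immediate early genes, and their transcripts were followed here in microglia, the resident macrophages of the brain, from neonatal rats. The 4 genes were taken by name and Ensembl identifier, with earlier results of these data known (Fos ENSRNOG00000008015, Jun ENSRNOG00000026293, Junb ENSRNOG00000042838 and Egr1 ENSRNOG00000019422), out of 32754 genes counted in all. All 4 were among the 12860 genes that passed the filter on low counts, a CPM (a gene's count relative to all counts of its sample, after scaling) above 1 in 3 or more of the 24 samples. Whole-brain microglia came from male and female Sprague-Dawley pups at postnatal day 9, by magnetic beads carrying an antibody to CD11b (CD11b/c in the methods), surface proteins that other myeloid cells also carry. From postnatal day 1 the pups had spent 8 days with their dams either in normoxia (Nx, room air with 21% O2) or under intermittent hypoxia (IH, 2 min cycles between 10.5% and 21% O2 for 8 hours a day). At 16 hours after the last exposure they received vehicle or lipopolysaccharide (LPS, a component of the bacterial cell wall that starts an inflammatory response) into the peritoneum, and cells were taken 3 hours later. The design text gives the LPS dose as 0.1 mg/kg while the sample protocol gives 0.1 mg/mL, and the vehicle is saline in the labels and HBSS in the methods. Sex, oxygen and injection formed 8 groups of 3 samples each: male Nx, male IH, male Nx LPS, male IH LPS, female Nx, female IH, female Nx LPS and female IH LPS. The labels call them biological replicates without saying which animals or litters each came from, so p-values here measure the spread between these samples.

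Immediate early genes are transcribed within minutes of a stimulus without the need for new protein, through transcription factors that are already present in the cell. Fos pairs with a Jun family protein to form AP-1, a dimeric transcription factor that, with PU.1, also sits at many enhancers of macrophages and microglia. Jun can bind DNA as a homodimer or with Fos, Junb is a Jun family member that is a weaker activator than Jun on many targets, and Egr1 is a zinc finger transcription factor that binds GC-rich DNA. In myeloid cells all of them can respond to Toll-like receptor 4, the LPS receptor, through MAP kinases. Handling of tissue and cells can also raise these transcripts, so their level in vehicle samples is part of what an isolation protocol yields. How much of each level arose during the isolation was not tested.

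The promoters of Junb and Egr1 are printed because the RefSeq table used here held these 2 members. Each run holds the 250 bases before the transcription start in the rat assembly GRCr8, plus strand, and capitals mark motif matches. Junb is chr19:40080876-40081125 and Egr1 is chr18:26736828-26737077.
Junb: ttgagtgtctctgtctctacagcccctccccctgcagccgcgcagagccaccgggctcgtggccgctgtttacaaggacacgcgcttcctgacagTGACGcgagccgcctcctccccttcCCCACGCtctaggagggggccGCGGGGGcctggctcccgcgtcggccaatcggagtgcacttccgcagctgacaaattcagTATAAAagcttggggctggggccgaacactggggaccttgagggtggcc
Egr1: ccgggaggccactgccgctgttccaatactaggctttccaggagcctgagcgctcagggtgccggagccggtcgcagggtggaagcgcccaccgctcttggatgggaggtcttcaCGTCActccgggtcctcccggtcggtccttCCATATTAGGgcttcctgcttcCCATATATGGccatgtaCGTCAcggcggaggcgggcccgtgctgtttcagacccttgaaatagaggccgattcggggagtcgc
The Egr1 promoter held 2 serum response elements (CArG boxes, the site of serum response factor), at 105 to 96 and at 83 to 74 bases before the start. Of 33469 rat promoters of the same length, 1.50% held at least 1 such element and 7 promoters (0.0209%) held 2 or more. Egr1 also held 2 matches on the reverse strand to TGACG, the core of the cAMP response element, which 18.2% of the promoters held. Junb held TGACG at 155 to 151 bases, GCGGGGG at 109 to 103 bases and, on the reverse strand, GCGTGGG at 130 to 124 bases before the start. GCGGGGG and GCGTGGG are forms of the core EGR1 site, and they occurred in 8.14% and 3.68% of the promoters. A TATAAA box, held by 12.9% of them, stood at 49 to 44 bases before the Junb start. The full cAMP response element TGACGTCA (1.59% of promoters), the AP-1 site TGANTCA (6.34%) and an NF-kB site (6.33%) had no match in either window. Both strands were searched, and matches could overlap those of another motif.

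Before the results, several libraries need naming. Total counts were 6624453 to 8548714 per sample, with a median of 7532796.5, and reads that mapped to more than 1 place were 11.7% to 23.4% of all entries of a file, highest in male Nx sample 2. The members had 168 to 5151 reads per sample, so counting error was at most 7.72% of a value, and it covers counting error only. Cxcl10, a chemokine induced by interferon and NF-kB signals, checked the injection labels. It measured 3.99 to 14.1 CPM in the 12 vehicle samples and 440.4 to 3192 CPM in 10 of the 12 LPS samples. Male Nx LPS sample 2 had 123 CPM and male IH LPS sample 3 had 23.1 CPM, and both libraries are given separately below. Of the 7 genes with an identifier here in a list of 15 LPS-response genes, 7 passed as higher with LPS in Nx and 6 in IH. Il1a was higher in IH without passing (log2 fold change 1.35, edgeR adjusted p = 0.0791). Median log2 fold changes of the 7 were 3.24 and 2.58. Over all tested genes they were -0.04 and -0.01, and 9.26% and 5.05% passed as higher. The 7 have an identifier here because the study listed them as lower in IH LPS than in Nx LPS in the female samples of these data. Such a listing favours high Nx LPS values. Neither their rise in Nx nor the size of their values in IH against Nx is therefore independent evidence. The 4 male samples numbered 1, 1 in each male group, also stood apart, in the members themselves. The cell type could not be checked against microglial markers, since the files used here do not pair identifiers with gene names and no marker had an identifier. In bulk samples, fewer cells of a type and less RNA per cell cannot be told apart.

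The level of Fos in vehicle samples asked how active these genes were in cells from pups without LPS. All values below are CPM after TMM scaling, with the samples of a group in the order 1, 2, 3. Fos, the AP-1 partner of the Jun proteins, was at 187, 69.8 and 55.3 for males in Nx and at 221, 65.3 and 39.7 for males in IH. In females it measured 31.1, 49.5 and 80.9 in Nx and 29.9, 40.7 and 53.0 in IH. Vehicle samples thus spanned 29.9 to 221 CPM, a 7.38-fold range, with a median of 54.2 CPM, and male sample 1 was far above the others in both oxygen groups. After LPS, males in Nx had 184, 59.5 and 62.0, males in IH 197, 111 and 37.5, females in Nx 61.1, 53.5 and 75.7, and females in IH 40.1, 49.2 and 93.1. The 12 LPS samples spanned 37.5 to 197 CPM with a median of 61.5 CPM, inside the vehicle range. The group means ran from 41.2 CPM in female IH to 115 CPM in male IH LPS, and the samples of every neighbouring pair of groups in that order overlapped.

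Jun, the founding member of the Jun family, was distributed alike. In male vehicle samples it measured 216, 98.9 and 49.9 CPM in Nx and 238, 82.9 and 59.0 CPM in IH. Female vehicle samples measured 61.0, 78.1 and 80.1 CPM in Nx and 66.1, 46.6 and 76.1 CPM in IH, a much narrower range. After LPS, Jun in males was at 123, 91.1 and 58.7 CPM with Nx and 145, 103 and 75.4 CPM with IH, and in females at 81.2, 45.0 and 77.0 CPM with Nx and 59.5, 90.0 and 101 CPM with IH. Group means ran from 62.9 CPM in female IH to 127 CPM in male IH, so that both ends of the order were vehicle groups. Here too every neighbouring pair overlapped.

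Junb, the Jun family member with weaker activating capacity, was the gene with the clearest separation by injection. With vehicle, males had 141, 51.4 and 59.2 CPM under Nx and 113, 54.7 and 62.2 CPM under IH, and females 32.3, 139 and 66.9 CPM under Nx and 53.1, 23.9 and 78.7 CPM under IH. With LPS, males had 215, 67.7 and 249 CPM under Nx and 162, 251 and 111 CPM under IH, and females 292, 139.6 and 319 CPM under Nx and 158, 144 and 528 CPM under IH. The 4 vehicle groups had the 4 lowest means, 51.9 to 83.7 CPM, and the 4 LPS groups the 4 highest, 175 to 277 CPM. Neighbouring groups in the order still overlapped, including male Nx and male IH LPS at the step between vehicle and LPS.

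Egr1, the zinc finger factor, lay between these patterns. Vehicle males had 450.2, 229.6 and 223 CPM under Nx and 584, 160.1 and 149 CPM under IH, and vehicle females 114, 219 and 335 CPM under Nx and 139.5, 169 and 267 CPM under IH. LPS males had 546, 199.9 and 524 CPM under Nx and 644, 579.7 and 175 CPM under IH, and LPS females 534, 432 and 536 CPM under Nx and 265, 190.4 and 668 CPM under IH. The order of means again had the 4 vehicle groups lowest, from 192 CPM in female IH to 301 CPM in male Nx, and the 4 LPS groups highest, from 374 CPM in female IH LPS to 501 CPM in female Nx LPS, with overlap at every step. Levels were not compared between the 4 genes, because transcript lengths were not used.

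**Figure D1:**
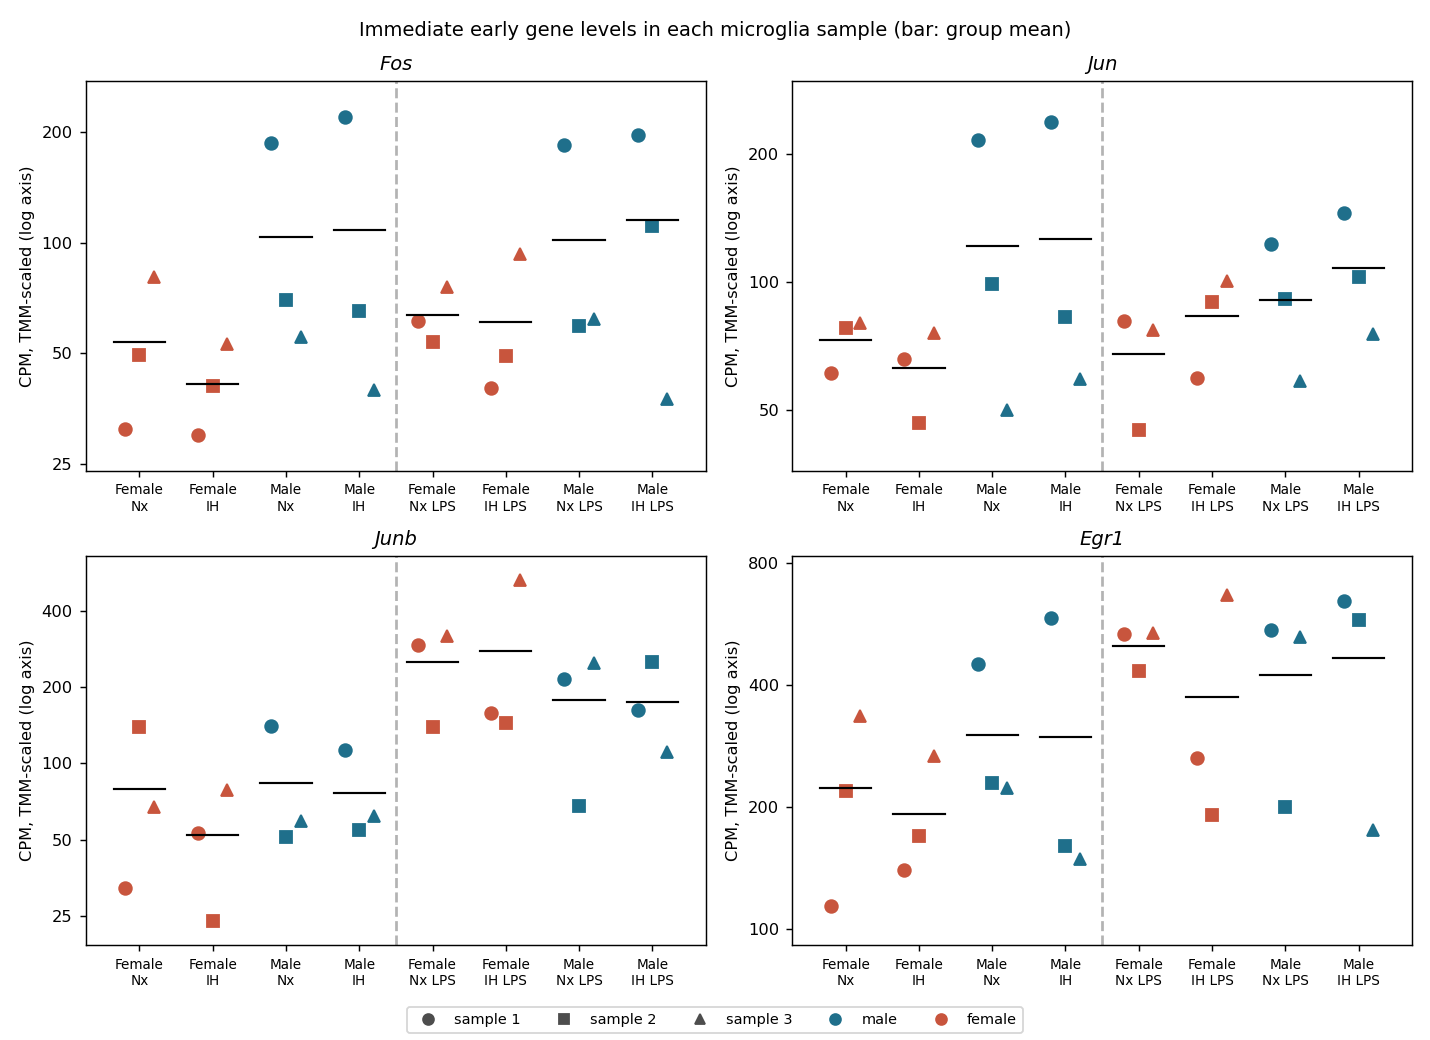
CPM after TMM scaling (log axis) of Fos, Jun, Junb and Egr1 in each of the 24 samples, by group, with vehicle groups left and LPS groups right of the dashed line. Symbols give the sample number, colours the sex and bars the group mean (n = 3). Male sample 1 is the highest of its group for Fos, Jun and Egr1 in 4 of 4 male groups, and Junb group means are 51.9 to 83.7 CPM with vehicle and 175 to 277 CPM with LPS.

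The spread between replicates was larger for these genes than for most. The SD of log2 CPM around the group means was 0.86 for Fos, 0.84 for Junb, 0.80 for Egr1 and 0.64 for Jun, against a median of 0.34 over all tested genes. Only 3.71% of tested genes had a larger SD than Fos, 4.08% than Junb, 5.61% than Egr1 and 13.8% than Jun. For Fos, 1 SD was a 1.81-fold difference between samples of the same group.

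**Figure D2:**
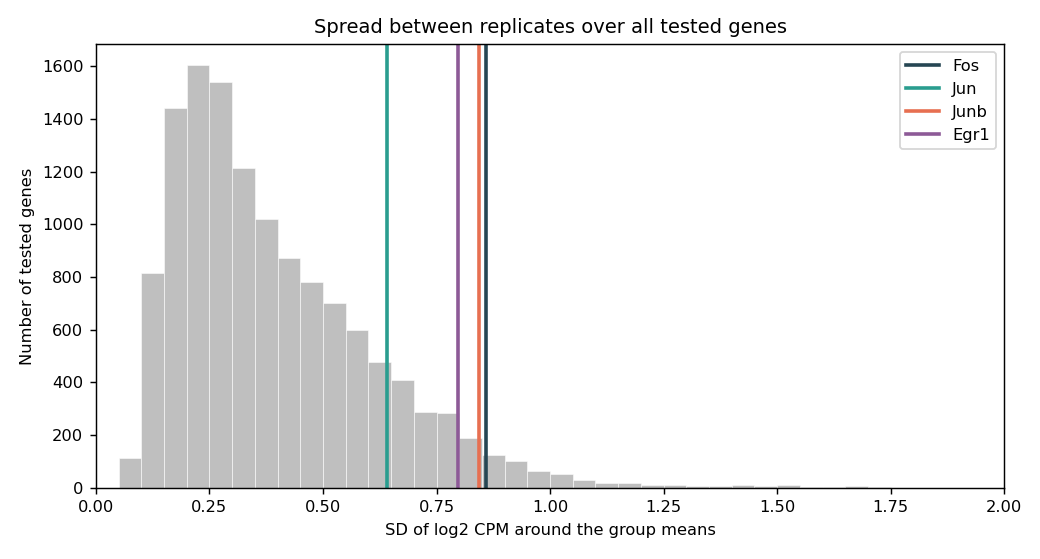
Number of tested genes (y axis) by the SD of log2 CPM around the 8 group means (x axis), with vertical lines at the 4 immediate early genes. Jun lies at 0.64 and Egr1, Junb and Fos at 0.80 to 0.86, all to the right of the median of 0.34. The axis ends at 2.

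For Fos and Jun, much of that spread lay in the 4 male samples numbered 1. Their Fos levels were 184 to 221 CPM, while no other sample exceeded 111 CPM. Their Jun levels were 123 to 238 CPM against at most 103 CPM elsewhere, and their Egr1 levels 450.2 to 644 CPM, a range that 5 other samples entered or passed. On the log2 scale they exceeded their group means by 1.15 on average for Fos, 0.81 for Jun, 0.78 for Egr1 and 0.50 for Junb, and Junb was highest in male sample 1 in 2 of the 4 male groups. Without these samples the SD was 0.56 for Fos and 0.41 for Jun, while it was 0.71 for Egr1 and 0.88 for Junb. Their total counts were 7028087 to 7792862 and their share of reads without a gene 17.3% to 17.6%, inside the range of the other samples. In females, sample 3 was the highest for Fos and Egr1 in 4 of 4 groups. The labels do not say what the numbers mark.

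Members tended to be high and low in the same samples, also within a group, but in several pairs many other genes followed as closely. Deviations of log2 CPM from the group means were correlated over the 24 samples, and an exact permutation test rearranged the 3 samples of each group. Fos and Egr1 gave Pearson's r = 0.880 (adjusted p = 0.000104 over the 6 pairs; rho = 0.867, adjusted p = 0.000139). Fos and Jun gave r = 0.836 (adjusted p = 0.000138; rho = 0.843, adjusted p = 0.000139). Junb and Egr1 gave r = 0.775 (exact adjusted p = 0.00109; rho = 0.762, adjusted p = 0.00124). Jun and Egr1 gave r = 0.635 (exact adjusted p = 0.00900; rho = 0.625, adjusted p = 0.0104), Fos and Junb r = 0.586 (adjusted p = 0.00900; rho = 0.575, adjusted p = 0.0131), and Jun and Junb r = 0.527 (adjusted p = 0.0117; rho = 0.522, adjusted p = 0.0192). Without the 2 samples farthest from the median of the gene named before the other, r was 0.846, 0.785, 0.713, 0.565, 0.611 and 0.516 in the same order. Without the 4 male samples numbered 1, the pairs Fos and Egr1 (r = 0.845, exact adjusted p = 0.00666), Junb and Egr1 (0.793, 0.0253) and Fos and Jun (0.581, 0.0249) still passed. Fos and Junb (0.563, exact adjusted p = 0.0889), Jun and Junb (0.381, 0.182) and Jun and Egr1 (0.286, 0.269) then did not. In the 12 vehicle samples every pair passed. In the 12 LPS samples Fos and Junb (0.567, exact adjusted p = 0.178), Jun and Egr1 (0.427, 0.281) and Jun and Junb (0.350, 0.353) did not. In the 12 female samples only Fos and Egr1 (0.921, 0.0324) and Jun and Junb (0.773, 0.0347) passed. In the 12 male samples all but Fos and Junb (0.652, 0.0694) and Jun and Junb (0.484, 0.156) passed.

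**Figure D3:**
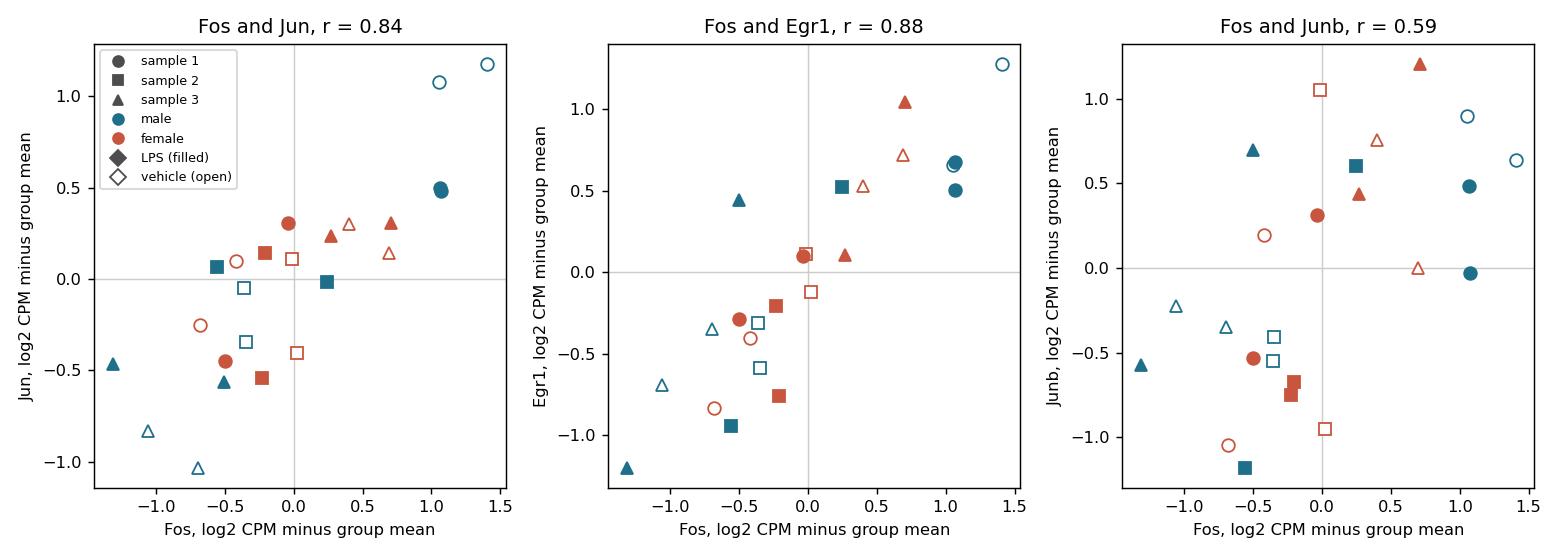
Deviation of log2 CPM from the group mean for Fos (x axis) against Jun, Egr1 and Junb (y axes) in the 24 samples, filled for LPS and open for vehicle, with symbols for the sample number. The 4 male samples numbered 1 lie at the right of each panel, and r is 0.836 with Jun, 0.880 with Egr1 and 0.586 with Junb.

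Across all tested genes, the level of Fos was most like that of ENSRNOG00000000640 (r = 0.921 over the 24 samples, log2 CPM), with Jun at rank 3 (0.845). The gene most like Jun was Fos. Junb was most like ENSRNOG00000054344 (0.957) and Egr1 most like ENSRNOG00000011205 (0.893), and these genes have no name here. An r above 0.7 was found for 16 other genes with Fos, 8 with Jun, 160 with Egr1 and 567 with Junb. For deviations from the group means these numbers were 55, 32, 111 and 132. By deviations, Egr1 and Jun ranked 6 and 13 of 12859 genes for likeness to Fos. For likeness to Junb, Egr1 ranked 43, Fos 488 and Jun 749. These values are descriptions, since genes measured in the same libraries share depth and scaling.

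The effect of LPS at 3 hours was tested in each oxygen group, with male and female differences weighted equally, by the quasi-likelihood test of edgeR with Benjamini-Hochberg adjustment over all 12860 genes. Junb rose in both. In Nx, the 6 vehicle samples spanned 32.3 to 141 CPM (median 63.1) and the 6 LPS samples 67.7 to 319 CPM (median 232). Of the LPS samples, 4 lay above every vehicle sample. The log2 fold change was 1.37 (SE 0.43; 2.58-fold, 95% CI 1.38 to 4.84), with an edgeR adjusted p of 0.0354. In this comparison 16.1% of all tested genes passed, 9.26% as higher, so that 1 member of 4 stood beside a high background. The call was close to the threshold: it was lost without male Nx sample 2 or 3, male Nx LPS 1 or 3, female Nx 1 or 3, or female Nx LPS 1 or 3, with edgeR adjusted p from 0.0675 to 0.0986 and log2 fold changes from 1.18 to 1.31. It was also lost without the 4 male samples numbered 1 (log2 fold change 1.59, edgeR adjusted p = 0.0571), and in a fit to only the 12 Nx samples (1.37, 0.0525). With the sample number as a block it was lost too (1.24, edgeR adjusted p = 0.0623).

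After IH, Junb measured 23.9 to 113 CPM with vehicle (median 58.5) and 111 to 528 CPM with LPS (median 160.4), and 5 of 6 LPS samples lay above every vehicle sample. The log2 fold change was 1.80 (SE 0.44; 3.48-fold, 95% CI 1.84 to 6.58), with an edgeR adjusted p of 0.0143. The share of all tested genes that passed was 7.16%, and 5.05% passed as higher. The 1 library whose removal ended this call was female IH LPS sample 3, the highest of all at 528 CPM (1.36 and edgeR adjusted p = 0.0632 without it). The share of genes called in IH also turned on single libraries, since 921 genes passed with all samples, 602 without male IH LPS 1 and 613 without female IH LPS 1. Within females, the LPS and vehicle samples of Junb did not overlap in Nx (lowest LPS 139.6 CPM, highest vehicle 139 CPM) or in IH (144 and 78.7 CPM), while in males they overlapped in both.

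Egr1 did not pass in either oxygen group in the main fit. It passed in Nx with a block for the sample number within sex (0.94, edgeR adjusted p = 0.0478), an alternative added after seeing the data. In Nx it went from 114 to 450.2 CPM (median 226) with vehicle to 199.9 to 546 CPM (median 529) with LPS, and 4 of 6 LPS samples lay above every vehicle sample. The log2 fold change was 0.83 (SE 0.41; 1.78-fold, 95% CI 0.99 to 3.20; edgeR adjusted p = 0.191). In IH the ranges were 139.5 to 584 CPM (median 165) and 175 to 668 CPM (median 422), with a log2 fold change of 0.81 (SE 0.41; 1.75-fold, 95% CI 0.97 to 3.15; edgeR adjusted p = 0.291). The IH value was 0.45 without female IH LPS sample 3 and 1.29 without male IH sample 1, and it passed in neither fit. The intervals reach from no change to above 3-fold. Only in the female Nx pair of groups did the samples not overlap, and the share of all genes doing so was again not counted.

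Fos and Jun gave small estimates with wide intervals. The LPS log2 fold change of Fos was 0.10 in Nx (SE 0.44; 1.07-fold, 95% CI 0.57 to 2.04; edgeR adjusted p = 0.917) and 0.32 in IH (SE 0.45; 1.25-fold, 95% CI 0.66 to 2.38; 0.790). No LPS sample of Fos exceeded the highest vehicle sample of its oxygen group. For Jun it was -0.27 in Nx (SE 0.33; 0.83-fold, 95% CI 0.51 to 1.35; edgeR adjusted p = 0.676) and 0.09 in IH (SE 0.33; 1.06-fold, 95% CI 0.66 to 1.72; 0.943). A 2-fold rise of Fos at this time lies inside these intervals, which come from a fit without the sample numbers. The estimates moved with single libraries: without male sample 1 of the vehicle group, Fos in Nx was 0.47 and Jun 0.089 in Nx and 0.52 in IH. Fos in Nx was -0.27 without male Nx LPS sample 1, and Jun in IH -0.083 without male IH sample 3. Over all fits that left out 1 sample, Fos in IH ran from 0.0061 to 0.86.

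The 2 LPS libraries with little Cxcl10 were also low in Junb and Egr1. Male Nx LPS sample 2 had 67.7 CPM of Junb and 199.9 CPM of Egr1, the lowest of the 6 Nx LPS samples for both. Male IH LPS sample 3 had 111 CPM of Junb and 175 CPM of Egr1, the lowest of the 6 IH LPS samples for both. Without these 2 libraries the log2 fold change of Junb was 1.55 in Nx (edgeR adjusted p = 0.0123) and 1.91 in IH (0.00548). That of Egr1 was 0.98 in Nx (edgeR adjusted p = 0.0720) and 0.99 in IH (0.100). The libraries were picked after seeing the data by Cxcl10, itself a response to LPS, so leaving them out favours a larger LPS effect. What set them apart was not tested.

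Of 16 genes listed as AP-1 or EGR1 targets, 2 had an identifier here, Ptgs2 (cyclooxygenase 2, which makes prostaglandin precursors) and Il6 (interleukin 6). Both are from the same listing of genes that were lower in female IH LPS than in female Nx LPS. That listing favours high Nx LPS values, so their rise in Nx is not independent evidence either. The size in IH against that in Nx is not read here. Ptgs2 rose from 0.56 to 11.1 CPM in Nx (log2 fold change 4.43, SE 0.75, edgeR adjusted p = 0.000350) and from 0.46 to 6.44 CPM in IH (3.55, SE 0.76, 0.00530). Il6 rose from 0.84 to 5.08 CPM in Nx (2.57, SE 0.33, edgeR adjusted p = 2.19e-05). In IH the Il6 means were 1.66 and 3.58 CPM (1.02, SE 0.31, edgeR adjusted p = 0.0486), a call that held in 6 of the 24 fits that left out 1 sample, with adjusted p up to 0.142.

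Whether members differed from each other in their response to LPS was examined by ratios within a sample, a measure added after the values had been seen. The Junb to Jun ratio in IH was 0.48 to 1.05 in the 6 vehicle samples and 1.12 to 5.22 in the 6 LPS samples, without overlap. In Nx it was 0.52 to 1.78 with vehicle and 0.74 to 4.23 with LPS. The mean log2 ratio was higher with LPS by 1.55 in IH (SE 0.37) and by 1.61 in Nx (SE 0.48). Junb to Fos was higher by 1.40 in IH (SE 0.46) and 1.27 in Nx (SE 0.43), and Egr1 to Fos by 0.44 (SE 0.20) and 0.71 (SE 0.27). Of the 12 ratio tests, the smallest exact permutation p was 0.005, the smallest that 400 labellings can give, and after adjustment over the 12 the lowest value was 0.05, at the threshold but not below it. With 400 labellings, a single p at that floor cannot pass over 12 tests unless others are small too. None of the 12 passed with all samples. Leaving out the 2 LPS libraries low in Cxcl10, which were also the lowest in Junb and Egr1, gave 4 tests below the threshold (exact adjusted p of 0.04 to 0.045), but that choice itself favours higher ratios and these are not counted as calls.

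**Figure D4:**
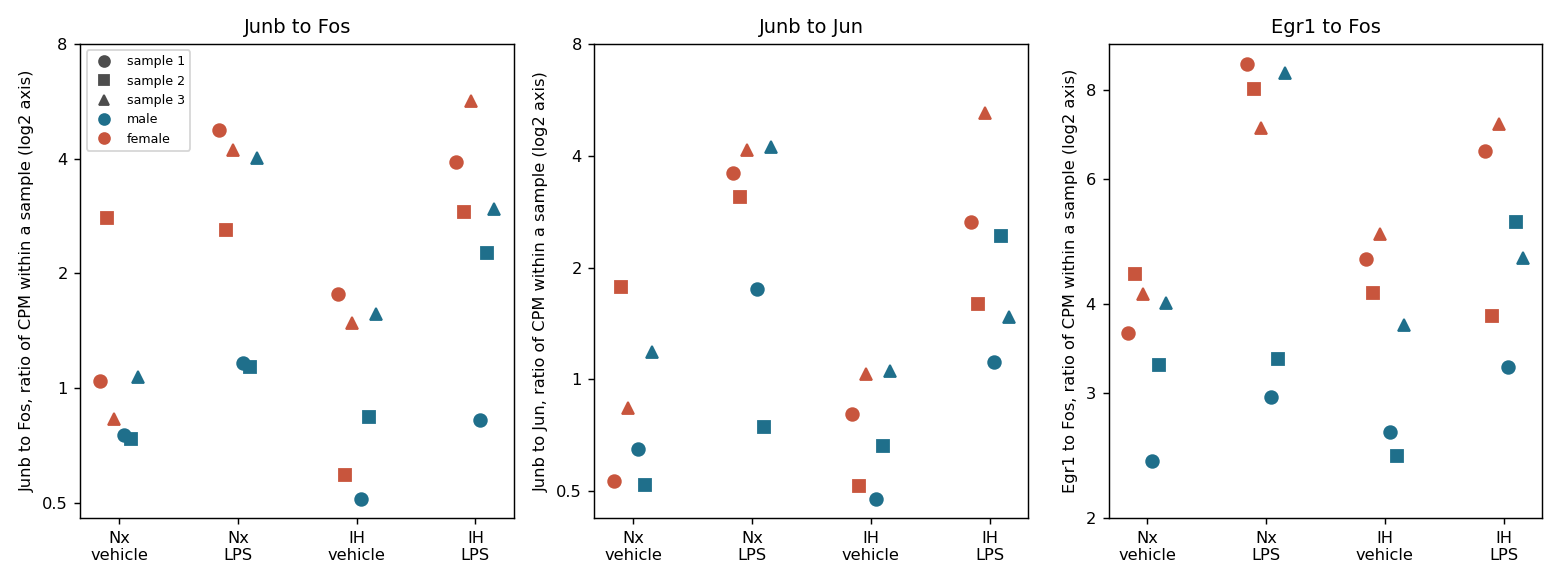
Ratio of CPM within a sample (log2 axis) for Junb to Fos, Junb to Jun and Egr1 to Fos, by oxygen and injection, with colours for sex and symbols for the sample number. The Junb to Jun ratio in IH is 0.48 to 1.05 with vehicle and 1.12 to 5.22 with LPS.

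The difference in the LPS effect between IH and Nx asked whether the exposure altered the response. On the log2 scale it was 0.22 for Fos (95% CI -1.09 to 1.53), 0.35 for Jun (-0.63 to 1.34), 0.43 for Junb (-0.83 to 1.69) and -0.02 for Egr1 (-1.22 to 1.17), with edgeR adjusted p of 1.00 for each. No tested gene passed here (0%). An unadjusted p under 0.05 was found for 182 genes (1.42%), a smaller share than the 0.05 expected on average without any effect. The larger Junb change in IH is therefore not shown to differ from that in Nx.

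IH itself was compared with Nx in vehicle and in LPS samples, with male and female differences weighted equally. The paper made this comparison within each sex and lists a few genes at an FDR below 0.05, which was not repeated here. With vehicle, the IH log2 fold changes were -0.16 for Fos (95% CI -1.09 to 0.77), -0.08 for Jun (-0.77 to 0.61), -0.37 for Junb (-1.27 to 0.53) and -0.12 for Egr1 (-0.96 to 0.73). With LPS they were 0.06 (-0.87 to 0.98), 0.28 (-0.42 to 0.97), 0.06 (-0.82 to 0.95) and -0.14 (-0.98 to 0.70) in the same order. None of the 4 genes passed, nor did any tested gene in either comparison (0% in both). The genes at an unadjusted p under 0.05 were 130 (1.01%) with vehicle and 378 (2.94%) with LPS, again smaller shares than 0.05. The likelihood ratio test of edgeR and DESeq2 also called 0 genes in these comparisons and in the difference above.

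Males and females were compared in vehicle samples. Fos spanned 39.7 to 221 CPM in the 6 males (median 67.6) and 29.9 to 80.9 CPM in the 6 females (median 45.1), and the sexes overlapped. The log2 fold change, male over female, was 1.17 for Fos (SE 0.45, edgeR adjusted p = 0.400) and 0.87 for Jun (SE 0.34, edgeR adjusted p = 0.399). Junb gave 0.32 (SE 0.43, edgeR adjusted p = 0.734) and Egr1 0.53 (SE 0.41, edgeR adjusted p = 0.541). Of the tested genes 8 (0.0622%) passed, against 19 by the likelihood ratio test and 19 by DESeq2. A far larger number, 1506 (11.7%), had an unadjusted p under 0.05, Fos and Jun among them. Without the 4 male samples numbered 1 the values were 0.27, 0.09, -0.18 and -0.15 for Fos, Jun, Junb and Egr1. The difference in the LPS effect between males and females was -0.37 for Fos, -0.47 for Jun, -0.90 for Junb (95% CI -2.16 to 0.37) and -0.50 for Egr1. No tested gene passed (0%), and 0 did by the likelihood ratio test and by DESeq2. An unadjusted p under 0.05 was found for 169 genes (1.31%), again a smaller share than 0.05.

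**Figure D5:**
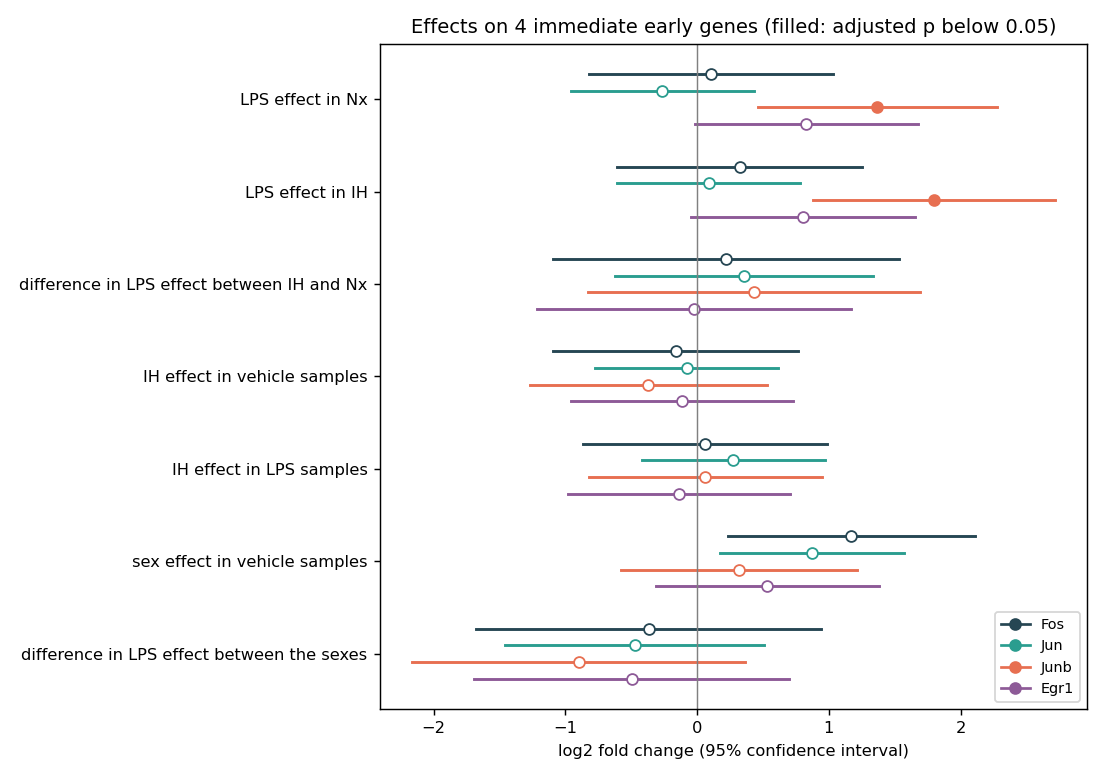
Fitted log2 fold change (x axis; bars, 95% confidence interval) of the 4 immediate early genes in 7 comparisons, with filled points where the edgeR adjusted p is below 0.05. Junb is filled for LPS in Nx (1.37) and in IH (1.80), and all other points are open.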

How the data were processed

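RNA from microglia isolated by CD11b/c was sequenced as stranded mRNA libraries on an Illumina HiSeq, with 3 samples in each of 8 groups. The authors aligned reads with TopHat2 (version 2.1 in the submitters' processing notes; build rn6), counted them per Ensembl gene with HTSeq in its reverse-stranded mode, and deposited raw counts as whole numbers. The 5 summary rows of the counter stayed out of totals and tests; reads without a gene made up 14.7% to 21.2% of a file, ambiguous reads 0.265% to 0.435% and non-unique alignments 11.7% to 23.4%. No coordinates were taken from rn6.

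Analyses used R 4.3.3 and edgeR 4.0.16, and DESeq2 1.42.0 in an alternative fit. The 12860 genes past a CPM of 1 in 3 or more of the 24 samples were scaled by TMM and fitted with 8 group means over all samples. Contrasts used the quasi-likelihood F test at an FDR of 0.05. Log2 CPM carried a prior count of 2. A standard error is the log2 fold change over the square root of its F statistic. The script was tested on simulated data. No samples were identical: replicates differed with a chi-square of 7.81 or more per degree of freedom.

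The 4 members and the gene lists were chosen with earlier results of these data known. The files used here do not pair identifiers with names. The 4 pairs above and those printed in the paper were used, so 7 of 15 LPS-response genes and 2 of 16 AP-1 or EGR1 targets could be read. The lists of other AP-1 and EGR genes, other immediate early genes, feedback inhibitors, upstream kinases, heat shock genes and cell type markers had no identifier and were not analysed here. The planned rule named, in every comparison, the 4 members, up to 4 genes per list, and the 3 genes most like each member; of the last only the leading gene is given, as most lack names. Cxcl10, Ptgs2 and Il6 come from the lists. Promoters were matched by symbol in RefSeq (GRCr8), and the table used here held 2 of the 4 members, Junb and Egr1.

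Replicate numbers 1 to 3 recur in every group. They were not treated as pairing in the main fit, since the labels do not say what they mark. Not every same-numbered pair deviated together, which does not show that the samples are unpaired. No batch or date is given. Alternatives were RLE size factors, no filter, the likelihood ratio test, DESeq2, robust dispersions, a fit to the 12 samples compared, raw library totals, a prior count of 0.5, exact permutation, the replicate number as a block, and leaving out each sample. The block within sex, the fits without 2 weak LPS libraries or 4 male samples, and the ratios were added after seeing the data.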

Additional observations from a re-analysis of the deposited data

Results flagged for a closer look

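In each set of 6 samples of 1 oxygen and injection, the gap between the highest or lowest sample and its neighbour was divided by the range of log2 CPM. Of 16 such sets over the 4 genes, 3 held a sample far from the others by Dixon's criterion, where chance gives about 1 in 20. Fos in the 6 Nx LPS samples had a gap of 0.720 of the range, with male Nx LPS sample 1 high at 184 CPM and the other 5 samples at 53.5 to 75.7 CPM. Jun in the 6 IH vehicle samples had a gap of 0.647, with male IH sample 1 high at 238 CPM and the next sample at 82.9 CPM. Egr1 in the 6 Nx LPS samples had a gap of 0.766, with male Nx LPS sample 2 low at 199.9 CPM and the next sample at 432 CPM. The high samples are both male samples numbered 1, and the low sample is a library with little Cxcl10.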

How the results depend on the processing

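Of 448 alternative values other than those leaving out 1 sample, 417 kept their direction and their side of the threshold, or moved by less than the limit set for them. The cause of the changes below was not tested. The replicate numbers were used as a replicate block, although same-numbered samples correlated above 0.1 in only 11 of 18 pairs among males (mean r = 0.154), 8 of 18 among females (mean r = -0.0041) and 18 of 48 across the sexes, which falls short of the criterion for pairing (every pair above 0.1); 17 of 24 samples correlated best with their own number, a hint from the data. With the block the Junb effect of LPS in Nx was 1.24 (edgeR adjusted p = 0.0623) and the Egr1 difference between IH and Nx 0.053, and 2029 and 907 genes passed for LPS in Nx and IH; no other call of a member changed, and no count moved by over 1.5 times. With a replicate block within sex, the Egr1 effect of LPS in Nx was 0.94 (edgeR adjusted p = 0.0478) and the Fos effect of IH with LPS -0.019. In a fit to the 12 samples, Junb in Nx was 1.37 (edgeR adjusted p = 0.0525). The likelihood ratio test and DESeq2 each called 19 genes for sex, against 8. Exact permutation gave 0.87 for Egr1 with LPS in Nx (p = 0.04, unadjusted) and -0.025 for Fos with IH in LPS samples. Without the 2 LPS libraries low in Cxcl10, 1602 genes passed for LPS in IH, the Egr1 difference between IH and Nx was 0.0066, the Junb effect of IH with LPS -0.013, and the changes in ratio were 1.42 (Junb to Fos, Nx), 1.92 and 1.57 (Junb to Jun, Nx and IH) and 1.31 (Egr1 to Jun, Nx), with exact adjusted p of 0.04 to 0.045. Without the 4 male samples numbered 1, 1184 and 348 genes passed for LPS in Nx and IH, Junb in Nx was 1.59 (edgeR adjusted p = 0.0571), the Egr1 difference between IH and Nx 0.23, the sex effects of Junb and Egr1 -0.18 and -0.15, the Jun difference between the sexes 0.020, and r was 0.563 for Fos and Junb, 0.381 for Jun and Junb and 0.286 for Jun and Egr1. Il6 with LPS in IH lost its call with no filter (edgeR adjusted p = 0.0701), either block (0.0575 and 0.0827), the 12-sample fit (0.0520) and without the 4 male samples (0.238). With each sample left out in turn, the effect of LPS in Nx was 1.18 to 1.71 for Junb, -0.27 to 0.47 for Fos and -0.45 to 0.089 for Jun, and that in IH 1.36 to 2.02 for Junb and -0.083 to 0.52 for Jun, 0.45 to 1.29 for Egr1 and 0.0061 to 0.86 for Fos, with 602 to 1373 genes passing in IH. The difference between IH and Nx was -0.15 to 0.76 for Fos, -0.0017 to 0.78 for Jun, -0.0048 to 0.65 for Junb and -0.38 to 0.46 for Egr1. The IH effect was -0.70 to 0.20 for Fos, -0.50 to 0.28 for Jun and -0.60 to 0.095 for Egr1 with vehicle, and -0.26 to 0.43 for Fos, -0.37 to 0.23 for Junb and -0.50 to 0.056 for Egr1 with LPS. The Fos difference between the sexes was -0.74 to 0.15, and the change in the Jun to Fos ratio in IH -0.36 to 0.0029. Of the 12 ratio tests, adjusted p crossed the threshold in some of these fits. Counting error was at most 7.72% of a member's value, while 1 SD between replicates was a 1.56- to 1.81-fold difference.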
